A study of Mus musculus with 8 samples.

Results

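The fibroblasts and pericytes of N2N1G allografts were picked from 8 single-cell libraries by their own transcripts. A cell was taken when it had at least 500 detected genes, at most 10% mitochondrial UMIs (unique molecular identifiers, 1 per captured transcript), at least 5 UMIs summed over Col1a1, Col1a2, Col3a1 and Dcn, at most 2 UMIs over the endothelial genes Cldn5, Pecam1, Cdh5 and Flt1, at most 1 UMI of the myeloid gene Tyrobp, and under 0.2% of its UMIs from eGFP and Mycl, which mark the tumour line. The rule found 88 cells among 36797 cells that passed the gene and mitochondrial limits. N2N1G is a mouse line of small cell lung cancer, and 1e+06 cultured cells had been given to each host and left for 3 weeks. The 2 brain and 3 subcutaneous flank tumours were started by direct injection and the 3 liver tumours through the tail vein, so site and route cannot be told apart for liver. The labels give no strain, age, sex or treatment of the hosts. All 8 allografts came from the same line and carried the eGFP transcript, and no tumour-free tissue was among the samples.

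Fibroblasts lay down the fibrillar collagens and proteoglycans of connective tissue and can release complement proteins, chemokines and growth factors. Pericytes and smooth muscle cells, together called mural cells, wrap blood vessels, share a basement membrane with the endothelium and carry contractile proteins. In skin and other organs, fibroblasts of the adventitia express Pi16, Dpp4 and Ly6a. In the brain, fibroblasts are confined to the meninges and the larger vessels, while pericytes cover the capillaries.

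Of the 88 cells, 76 came from subcutaneous replicate 1, 8 from brain replicate 1, 3 from brain replicate 2 and 1 from liver replicate 1. Liver replicates 2 and 3 and subcutaneous replicates 2 and 3 held none. In subcutaneous replicate 1 they made up 1.72% of 4423 kept cells (95% exact binomial interval 1.36 to 2.15%). The share was 0.237% of 3376 cells (0.102 to 0.466%) in brain replicate 1 and 0.0680% of 4411 cells (0.0140 to 0.199%) in brain replicate 2. In liver replicate 1 it was 0.0240% of 4171 cells (0.000607 to 0.134%). A count of 0 was given a limit of 3 cells. That is 0.0689% of 4357 cells in liver replicate 2 and 0.0624% of 4810 in liver replicate 3. It is 0.0468% of 6406 in subcutaneous replicate 2 and 0.0619% of 4843 in subcutaneous replicate 3. The upper ends of the exact intervals of these 4 libraries were 0.0846, 0.0767, 0.0576 and 0.0761%. Both brain libraries were above all 3 liver libraries, whereas the 3 subcutaneous libraries held the highest value of the series and 2 values of 0. These intervals and limits cover counting error only.

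**Figure D1:**
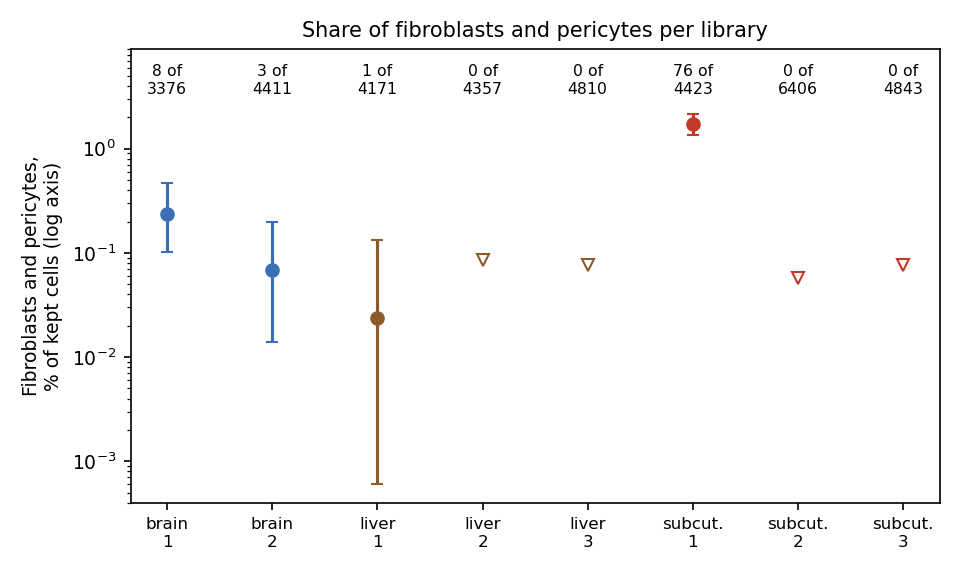
Fibroblasts and pericytes as a percentage of kept cells (log axis) in each library, with 95% exact binomial intervals and the counts printed above. Filled points are measured shares, and open triangles mark the upper end of the exact interval in the 4 libraries with 0 such cells. Subcutaneous replicate 1 stands at 1.72%, above the interval of every other library.

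The mean share was 0.152 ± 0.119% in brain (SD, n = 2), 0.00799 ± 0.0138% in liver (SD, n = 3) and 0.573 ± 0.992% in subcutaneous tumours (SD, n = 3). Any difference among the 3 sites was tested by an F statistic against all 560 ways to assign libraries to sites, an exact permutation test, which gave p = 0.807 (adjusted p = 1). In pairs (exact, two-sided), brain minus liver was 0.144 percentage points with p = 0.1, the smallest that 2 against 3 libraries allow, and the adjusted p over 4 tests was 0.4. Brain minus subcutaneous was -0.420 points and liver minus subcutaneous -0.565 points, each with p = 1 (exact). Without subcutaneous replicate 1, 12 cells were left in the series, and the sign turned: the subcutaneous mean minus the mean of the other sites was 0.493 points with it and -0.0802 points without it, and the exact permutation test of the F statistic over the 3 sites then gave p = 0.0952. A sort came before these counts. The labels state that healthy single cells were isolated by FACS and carry a gfp tag in each description, and the gate is not given in the sources used here. A gate on the reporter can set the share of host cells, and its part in the differences between libraries was not tested.

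The libraries held 3742 to 6707 deposited cells and 27140735 to 63049542 UMIs. Subcutaneous replicate 1 (4580 cells, 43328650 UMIs) lay within both ranges. Its cells under the 0.2% limit numbered 273, of which 121 had at least 2 Tyrobp UMIs and 5 had over 2 endothelial UMIs. In brain replicate 1 these numbers were 958, 830 and 78. Subcutaneous replicates 2 and 3 had 130 and 51 cells under the limit, with 1 and 2 Tyrobp cells and no endothelial cell, so other host cells were also few there. Libraries shared 882 of 37556 barcodes, and 2 of the 88 cells carried a shared barcode.

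The name of the group was checked on markers outside the rule. A cell was called fibroblast-marked with UMIs of at least 2 of Pdgfra, Lum, Dpt, Pi16, Clec3b and Mfap5, and mural-marked with at least 2 of Rgs5, Kcnj8, Abcc9, Cspg4, Notch3 and Higd1b. In subcutaneous replicate 1, 68 of 76 cells were fibroblast-marked, 7 were mural-marked, 1 was neither and 0 were both. In brain replicate 1, 5 of 8 were mural-marked and 3 neither, and in brain replicate 2 all 3 were neither. With each cell thinned to 1000 UMIs, which 75 of the 76 cells reached, 67 of 75 (89.3%, exact interval 80.1 to 95.3%) were fibroblast-marked and 7 of 75 (9.33%, 3.84 to 18.3%) mural-marked. The 4 marker genes of the group were detected in most fibroblast-marked cells: Serpinh1, which chaperones collagen and was not in the rule, had UMIs in 63 of 68.

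The single liver cell went against the name. It held 5 Dcn UMIs and none of Col1a1, Col1a2, Col3a1 or Serpinh1, beside 6 eGFP, 4 Mycl and 9 Nfib UMIs, the last a transcription factor of small cell lung cancer. Its eGFP and Mycl share of 0.188% lay just inside the limit, and it enters no class level below. It was clustered with the rest and counts among the other members in the cluster levels. The limits cut through few cells elsewhere. In subcutaneous replicate 1 the member with the fewest collagen and Dcn UMIs had 7 and the fullest excluded cell had 1, and the highest eGFP and Mycl share inside was 0.143% against 0.219% for the nearest cell outside. In brain replicate 1, 4 further cells under the 0.2% limit were mural-marked but missed the rule, and 3 cells with at least 5 collagen and Dcn UMIs were left out for endothelial UMIs.

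**Figure D2:**
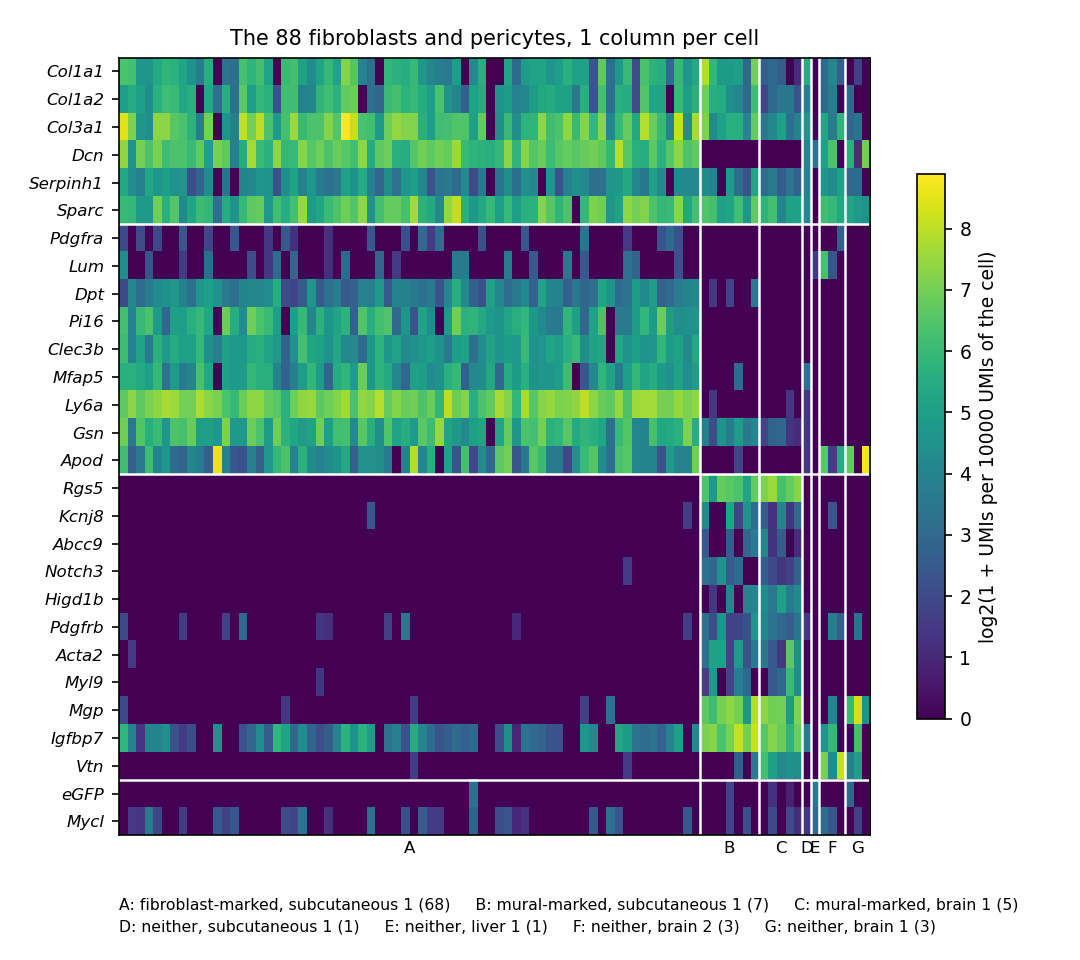
The 88 cells as columns, grouped by class and library (letters A to G, with the number of cells), against 28 genes as rows. Colour gives log2(1 + UMIs), with UMIs scaled to the same total in each cell. Dcn, Pi16 and Ly6a fill the 68 fibroblast-marked cells, and Rgs5 and Mgp fill the 12 mural-marked cells, in which Dcn is at 0.

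Levels below are UMIs summed over the cells of a class and scaled to the total of the class (CPM, UMIs per 1e+06), with 95% exact Poisson intervals. Because 1 library holds nearly all cells, there is no replicate check and no test between classes, and the intervals do not cover the spread between cells or animals. The classes rest on 270926 UMIs in 68 fibroblast-marked cells (median 3664.5 per cell), 25831 UMIs in 7 mural-marked subcutaneous cells (median 3813) and 37232 UMIs in 5 mural-marked brain cells (median 6741). The collagens and Dcn chose the cells, and their values are a description.

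The 9 listed fibrillar collagen genes, 3 of them in the rule, took 2.00% of all UMIs of the 68 fibroblast-marked cells (0 to 7.34% per cell, median 1.52%). Col3a1 (chr1:45311538-45349706, GRCm38) stood at 10756 CPM, Col1a2 at 4348 CPM and Col1a1 (chr11:94936224-94953042) at 3942 CPM (3709 to 4186). Dcn (chr10:97479609-97518143), the small proteoglycan decorin that binds collagen fibrils, stood at 9364 CPM (9003 to 9736). Single cells spread widely: Col3a1 ran from 0 through a median of 30 to 231 UMIs, and Dcn from 3 through 32 to 130 UMIs. Col5a1 and Col5a2, chains of the collagen that nucleates these fibrils, reached 306 and 543 CPM. The other 121 cells of the same library with Tyrobp held 8.69 CPM of Col3a1 and 1.45 CPM of Dcn, and the 4150 eGFP and Mycl rich cells held 9.83 and 6.07 CPM.

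Genes of collagen maturation were detected throughout the list. All 22 listed genes of collagen processing had UMIs in the fibroblast-marked cells, with a summed 0.715% of UMIs against 0.0340% in the eGFP and Mycl rich cells. Serpinh1 stood at 1698 CPM (1546 to 1860). Pcolce, which enhances removal of the procollagen tail, stood at 1609 CPM with UMIs in 65 of 68 cells, its relative Pcolce2 at 875 CPM and Loxl1, a crosslinking oxidase, at 853 CPM. Of the proteoglycans and fibril regulators, Mfap5 (3112 CPM), Fbn1 (1063 CPM) and Ogn (797 CPM) were the highest after Dcn, and Fn1, fibronectin, stood at 3388 CPM.

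Adventitial transcripts were detected in most fibroblast-marked cells, in part by choice, since Pi16, Clec3b, Dpt and Pdgfra were among the 6 genes that made the class. Ly6a (chr15:74994877-74998031), which encodes the surface protein Sca-1, had UMIs in 68 of 68 cells, from 12 through a median of 48.5 to 154 UMIs per cell, and stood at 13428 CPM. Pi16 (chr17:29317680-29330593) had UMIs in 64 cells at 3901 CPM (3670 to 4144), and Dpp4, the surface protease CD26, in 48 cells at 410 CPM. Cd34 had UMIs in 58 cells at 849 CPM. Clec3b and Dpt had UMIs in 67 and 68 cells. Dpp4 was also seen in 13.2% of the Tyrobp cells, while Pi16 was seen in 4.13% of them and in 1.61% of the eGFP and Mycl rich cells, whose median depths were 5308 and 9392.5 UMIs. Pdgfra, the classical fibroblast receptor, was low: 41 UMIs in all, in 22 of 68 cells.

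Genes of the activated, contractile fibroblast were low in the same cells. Acta2, smooth muscle actin, gave 1 UMI in the 68 cells (3.69 CPM), and Tagln gave none. Postn stood at 125 CPM in 16 cells and Cthrc1 at 118 CPM in 10 cells. Of 18 listed matricellular and myofibroblast genes, 12 had UMIs, and Sparc (7301 CPM) and Fn1 held most of their sum of 1.21%.

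Complement genes, named after their values were seen, were detected in most fibroblast-marked cells. The central component C3 stood at 1731 CPM (1578 to 1895) in 59 of 68 cells, C4b at 1406 CPM in 57 cells and C1s1 at 620 CPM in 54 cells. Serping1, the C1 inhibitor, had UMIs in 68 of 68 cells at 4499 CPM. Among the 20 genes with the highest ratio of CPM in the 76 cells over the other cells of this library (at least 200 CPM) were C1s1, C1rb, C3 and Serping1, along with the eosinophil chemoattractant Ccl11 (1863-fold), the scavenger receptors Ackr3 (3466-fold) and Scara5 (1621-fold), the lipocalin Apod (2020-fold), the transcription factors Prrx1 (1576-fold) and Ebf1 (1405-fold), and the matrix genes Prelp, Tnxb, Fndc1, Pcolce2, Dcn and Col1a1. The other 4 were Dpep1, Rarres2, Adgrd1 and Serpina3n, with ratios from 1336 to 1762. Reads of C1rb, Serpina3n and Ly6c1 can be hard to tell from near-identical copies of these genes.

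Chemokine and cytokine genes ranged from those seen in most cells to those seen in a few. Ccl11 had UMIs in 61 of 68 cells (867 CPM) and Csf1, the macrophage growth factor, in 44 cells (391 CPM). Cxcl12 had UMIs in 27 cells at 269 CPM. Cxcl14 came from 4 cells only, 1 with 86 of its 89 UMIs, and Il6 from 3 cells with 12 UMIs. The 5 richest cells held 84.6% of the Cxcl1 UMIs and 80.3% of the Ccl7 UMIs, against 19.5% for Dcn. Tyrobp cells of this library stood at 499 CPM of Ccl7, close to the 506 CPM of the fibroblast-marked cells, and at 0 of Ccl11.

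Growth factor genes were led by Sfrp2, a secreted Wnt modulator (1048 CPM in 52 cells), Vegfd, a lymphatic vessel growth factor (627 CPM in 53 cells), Sfrp1 (255 CPM) and Igf1 (114 CPM in 13 cells). Of 34 listed growth factors 20 had UMIs. The peptide hormone Adm stood at 1244 CPM in 44 cells. Among receptors, Tgfbr2 stood at 539 CPM, Tgfbr3 at 332 CPM and Fgfr1 at 233 CPM. The Igf binding proteins were split, with Igfbp6 at 2558 CPM and Igfbp4 at 1846 CPM. Matrix proteases and inhibitors were led by Timp2 (2960 CPM in 68 of 68 cells), Ctsl, Serpinf1 and Mmp2 (1214 CPM in 61 cells).

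Mural-marked cells of the same tumour differed from the fibroblast-marked cells over many genes. Among 1772 genes with at least 20 UMIs in either class, 79 (4.46%) were at least 4-fold higher in the fibroblast-marked cells and 37 (2.09%) at least 4-fold higher in the mural-marked cells. The marker genes that made the classes are among them. A count of 0 in the 7 mural-marked cells was set to a floor of 3 UMIs, or 116 CPM. A gene thus had to be high in the fibroblast-marked cells to be counted. The exact upper limit for 0 UMIs in the 7 cells was 143 CPM. Ly6a was 347-fold higher in the fibroblast-marked cells (62.2 to 13704 by counting, from 1 UMI in the mural-marked cells). With that count raised to 3 UMIs, the floor used for a count of 0, the ratio was 116-fold. Dcn had no UMI in 7 of 7 mural-marked cells and was at least 80.6-fold higher in the fibroblast-marked cells. Ly6c1 was at least 64.5-fold, Igfbp6 at least 22.0-fold and C3 at least 14.9-fold higher. Of the 15 listed fibroblast genes, 14 were compared and 9 were at least 4-fold higher, against 4.46% of all genes. The median log2 ratio was 2.67, against -0.19 over all 1772 genes. Nothing is read from this count or median: Dpt, Pi16, Clec3b and Mfap5 among the 9 made the class. These, with Fbln1, Cd34, Ly6a and Mmp2, passed the 20-UMI minimum only through the fibroblast-marked cells. Of 25 inflammatory fibroblast genes, 15 were compared. Ccl7, Ccl11, C3, C4b and C1s1 were at least 4-fold higher in the fibroblast-marked cells, against 4.46% of all genes. Il6 was higher in the mural-marked cells, against 2.09% of all genes, and 18 of its 21 UMIs there sat in 1 cell. Each passed the 20-UMI minimum only through the class where it was higher, so nothing is read from this count.

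Vessel wall genes stood on the other side. Rgs5 (chr1:169655501-169695813), a brake on G protein signalling and the usual pericyte marker, gave 10, 16, 20, 27, 31, 37 and 40 UMIs in the 7 cells, 7007 CPM in sum, and none in 68 fibroblast-marked cells. Mgp, an inhibitor of calcification, was 625-fold higher in the mural-marked cells (265 to 1939), at 11537 against 18.5 CPM. Igfbp7 was 13.6-fold higher (11.8 to 15.8) and had UMIs in all 7 cells. Col4a1 (7.44-fold, 4.94 to 11.1), Col4a2 and Col18a1 (68.2-fold, 23.7 to 269), all chains of basement membrane collagens, were past 4-fold. They were 3 of the 10 compared basement membrane genes, against 2.09% of all genes. The median log2 ratio of the 10, fibroblast-marked over mural-marked, was -0.09, against -0.19 over all 1772 genes. Col18a1 passed the 20-UMI minimum only through the mural-marked cells, so nothing is read from this count. Bgn, biglycan, was 8.15-fold higher (6.28 to 10.6), opposite to the related Dcn. Of the 15 listed pericyte genes 4 were compared, Rgs5, Kcnj8, Ndufa4l2 and Rgs4, each at least 4-fold higher, against 2.09% of all genes. Nothing is read from this count: Rgs5 and Kcnj8 made the class, and Rgs5, Kcnj8 and Rgs4 passed the 20-UMI minimum only through the mural-marked cells. Tgfb1 stood at 465 CPM in 6 of 7 cells against 3.69 CPM. None of the 5 compared fibrillar collagens passed 4-fold, and Col1a1 stood at 7936 CPM (6887 to 9100) in the mural-marked cells. In that sum, 1 cell held 106 of 205 Col1a1 UMIs.

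**Figure D3:**
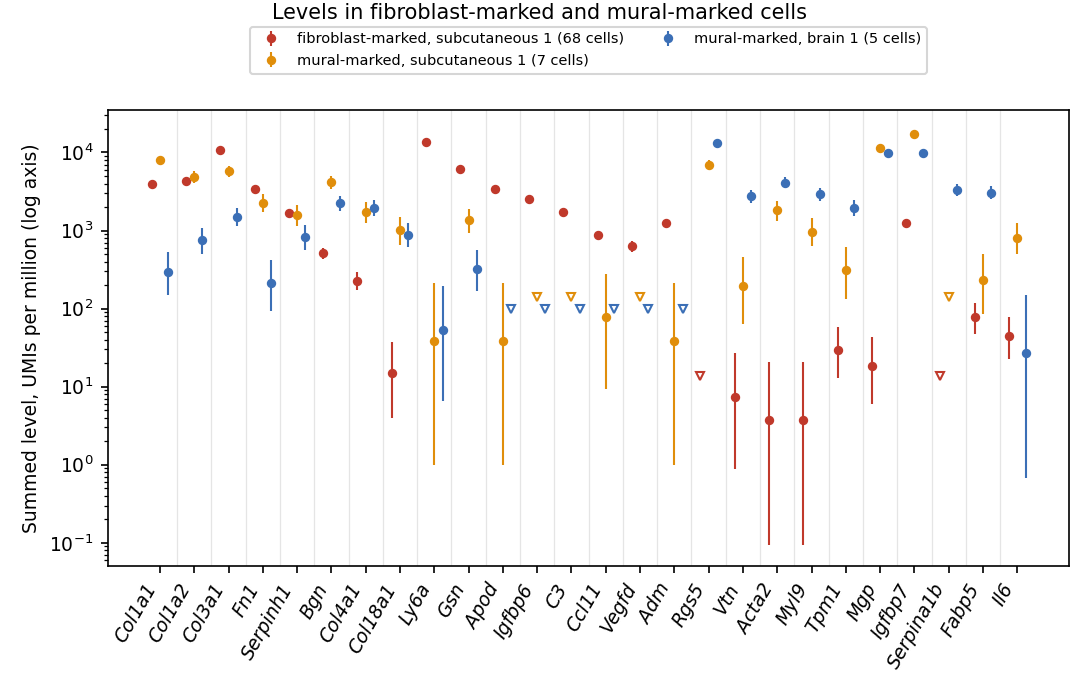
Summed levels (CPM, log axis) of 26 genes in the fibroblast-marked cells of subcutaneous replicate 1 (red), the mural-marked cells of that library (orange) and the mural-marked cells of brain replicate 1 (blue), with 95% exact Poisson intervals. Open triangles mark upper limits where a class had 0 UMIs. Ly6a, Apod, Igfbp6 and C3 are high in red, Rgs5, Mgp and Acta2 in orange and blue, and Col1a1 is low in blue alone.

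Contractile genes were seen in the mural-marked cells at uneven levels. Of 14 listed genes, 4 were compared (Acta2, Tagln, Myl9 and Cald1), each at least 4-fold higher than in the fibroblast-marked cells, against 2.09% of all genes. Acta2, Tagln and Myl9 passed the 20-UMI minimum only through the mural-marked cells, so nothing is read from this count. Acta2 (chr19:34241090-34255590) was 493-fold higher (84.3 to 19880), from 1 UMI in the fibroblast-marked cells, or 164-fold with that count raised to 3 UMIs. It gave 1, 1, 3, 4, 6, 11 and 21 UMIs in the 7 subcutaneous cells, and 1, 3, 4, 16 and 128 UMIs in the 5 brain cells. Myl9, the light chain of smooth muscle myosin, gave 85 UMIs in the brain cell that held 128 Acta2 UMIs and 0 to 16 in the other 4. Contractile transcripts ranged from 0.241 to 1.57% of UMIs in the subcutaneous cells and from 0.275 to 2.82% in the brain cells.

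To look for a shared motif, the 250 bases before their starts in the RefSeq promoter table (GRCm38.p6, 27025 genes) were searched for the CArG box, the binding motif of serum response factor. The search covered both strands, because the motif reads the same way on each. The exact motif was in the window of 1.62% of all genes, and with 1 mismatch allowed in 9.78%. Of the 14 contractile genes 11 matched the table, 1 with an exact motif (Myl9) and 2 with 1 mismatch allowed (Acta2 and Myl9, 18.2%). The pericyte list held a motif in 1 of 11 genes on both measures (9.09%), equal to the contractile share for the exact motif. The fibroblast list held an exact motif in 0 of 10 genes and 1 with 1 mismatch allowed (10%). For the fibrillar collagens these counts were 0 of 6 and 1 of 6 (16.7%). The Myl9 stretch ends where GENCODE M21 places the gene (chr2:156775214-156775419, plus strand). Both Acta2 motifs lie within the gene as GENCODE draws it, and 30 bases around each are shown (chr19:34255438-34255467 and chr19:34255388-34255417, minus strand). Capitals mark the motif, exact for the first in Myl9 and with 1 mismatch for the others.
Myl9: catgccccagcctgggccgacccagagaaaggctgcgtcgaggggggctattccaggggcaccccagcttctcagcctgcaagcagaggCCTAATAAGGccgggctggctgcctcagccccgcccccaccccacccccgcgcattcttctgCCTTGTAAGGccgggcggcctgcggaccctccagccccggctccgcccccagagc
Acta2, first: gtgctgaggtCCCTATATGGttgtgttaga
Acta2, second: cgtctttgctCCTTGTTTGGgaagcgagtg
A match is a run of letters and says nothing on binding in these cells.

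Mural-marked cells were chosen by the same pericyte genes in the brain and the flank tumour, and their collagen levels differed. Outside the rule genes, 0 of 3 compared basement membrane genes and 0 of 2 proteoglycan genes passed 4-fold in either direction. Between the 7 subcutaneous and 5 brain cells, 352 genes had at least 20 UMIs in either class. Of these, 26 (7.39%) were at least 4-fold higher in the subcutaneous cells and 21 (5.97%) in the brain cells. Col6a1 was 6.55-fold (3.37 to 14.0) and Col6a2 5.97-fold (2.56 to 16.1) higher in the subcutaneous cells. With Gsn they were the 3 compared genes of the fibroblast list, against 7.39% of all genes. All 3 passed the 20-UMI minimum only through the subcutaneous cells, so nothing is read from this count. Of 3 compared collagen processing genes, Adamts2 alone passed, also higher in the subcutaneous cells. Col1a1 was 26.9-fold higher in the subcutaneous cells (14.7 to 54.7), with 2, 5, 12, 12, 32, 36 and 106 UMIs per cell against 0, 1, 2, 3 and 5 in the brain cells. The 2 sets of cells overlapped at 2 to 5 UMIs. Col1a2 was 6.43-fold (4.24 to 10.1), Col3a1 3.84-fold (2.80 to 5.31) and Fn1 10.4-fold higher (4.97 to 25.3). Col1a1, Col1a2 and Col3a1 served in the rule. The fibroblast-marked cells of the same flank tumour held 8320 CPM of Gpx3 and 3388 CPM of Fn1, and the part of free RNA in the mural-marked cells was not tested. Gpx3 had no UMI in the brain cells and stood at 1045 CPM in the subcutaneous cells, and Cxcl1, Il6, Mt2, Gadd45b, Sncg and Mustn1 were also among the 10 highest.

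Brain mural-marked cells stood higher in Vtn (chr11:78499091-78502324), vitronectin. It gave 10, 16, 21, 27 and 28 UMIs in the 5 brain cells and 0 to 3 UMIs in the 7 subcutaneous cells, without overlap, and was 14.2-fold higher (5.87 to 44.5). Vtn was not particular to the mural-marked cells in brain. It had UMIs in 10 of all 11 brain cells, at 3720 CPM in sum, against 2740 CPM in the 5 mural-marked cells. Serpina1b, a protease inhibitor with near-identical copies beside it, gave 124 UMIs over 5 of 5 brain cells and none in the subcutaneous cells, at least 28.7-fold higher. Its level was 0.323 CPM in the eGFP and Mycl rich cells and 5.53 CPM in the Tyrobp cells of brain replicate 1. Fabp5, a fatty acid carrier, was 13.2-fold higher (5.87 to 36.7), but at 926 and 1197 CPM in the eGFP and Mycl rich cells and Tyrobp cells of that library it was not a gene of the mural cells alone. Arhgdib was at least 8.33-fold higher in the brain cells and stood at 464 CPM in the Tyrobp cells. Ifitm1, Cryab, Fkbp1a, Tmsb10, Vcl and Tpm1 filled the list of 10. Rgs5 was 1.87-fold higher in brain (1.57 to 2.23), and Mgp stood at 9991 and 11537 CPM. Of 8 compared pericyte genes Vtn alone passed 4-fold, against 5.97% of all genes higher in the brain cells. Nothing is read from this count: Rgs5, Kcnj8 and Higd1b among the 8 made the class. Vtn passed the 20-UMI minimum only through the brain cells. The sites differ here by 1 library each, so site, animal and library cannot be told apart.

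The other 6 brain cells were neither fibroblast-marked nor mural-marked and differed from each other. They held 875 to 8397 UMIs, and the shallow ones could miss markers. In brain replicate 2 the cells gave 17, 9 and 52 Vtn UMIs, 12, 1 and 8 Apod UMIs and 10, 2 and 0 UMIs of Lum, the proteoglycan lumican. Aldh1a2 and Slc6a20a, known from meningeal and perivascular fibroblasts, gave 4 and 4 UMIs in the second of these cells and 2 and 2 in the third. The second cell also held 36 UMIs of the chemokine Ccl2 and 41 of Dcn. In brain replicate 1, 2 shallow cells of 1416 and 875 UMIs had 7 and 11 Dcn UMIs, 15 and 37 Apod UMIs, 9 and 10 Spp1 UMIs and 7 and 4 UMIs of Cldn11. The third, with 8397 UMIs, held 257 Mgp, 26 Vtn and 8 Pdgfrb UMIs without any Rgs5. This cell also held 2 Aldh1a2 and 5 Cldn11 UMIs, and none of Slc6a20a, Apod or Lum. None of the 11 brain cells held over 2 Ly6a UMIs, and Pi16 and Clec3b were at 0 in all of them.

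Summed over classes, 132 of 2048 compared genes (6.45%) were at least 4-fold higher in the 76 subcutaneous cells than in the 11 brain cells and 66 (3.22%) were lower. The mix of classes differs between these sums, so this comparison largely restates the classes. Ly6a, Gpx3, Ly6c1, Pi16, Mfap5 and Clec3b led the first set, and Serpina1b, Vtn, Arhgdib, Ctsc and Ptn led the second.

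Hox genes keep a record of position along the body axis. Those of the Hoxa and Hoxc groups were seen in the subcutaneous cells and not in the brain cells, a comparison that within a class holds for the mural-marked cells alone, since no brain cell was fibroblast-marked. UMIs of the 10 listed Hoxa and Hoxc genes were seen in 44 of 68 fibroblast-marked cells (64.7%, exact interval 52.2 to 75.9%) and in 5 of 7 mural-marked cells (71.4%, 29.0 to 96.3%) of subcutaneous replicate 1. Their summed levels there were 354 and 348 CPM. In the 5 brain mural-marked cells there was no such UMI at a higher median depth, and the 6 other brain cells also had none. The floor of 3 UMIs is 80.6 CPM in the 5 cells, and the exact upper limit for 0 UMIs is 99.1 CPM. Over all 11 brain cells this floor is 53.7 CPM and the exact upper limit 66.0 CPM. The eGFP and Mycl rich cells of the flank tumour had such a UMI in 5 of 4150 cells (0.120%) and the Tyrobp cells in 0 of 121. Hoxc9 (24 UMIs in 18 fibroblast-marked cells), Hoxc8 (20 in 17) led in the fibroblast-marked cells, with 11 UMIs each of Hoxa7, Hoxa10 and Hoxc10. Hoxc10 (4 in 3) and Hoxc6 (3 in 3) led in the mural-marked cells. The 7 listed Hoxb and Hoxd genes gave no such contrast, with a UMI in 0 of 7 subcutaneous and 0 of 5 brain mural-marked cells and in 1 of 6 other brain cells. The tumour line itself expressed Hoxb and Hoxd genes, seen in 82.7% of its cells, against 10.3% of fibroblast-marked cells. All positive cells came from 1 library, and the difference between sites has no test.

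**Figure D4:**
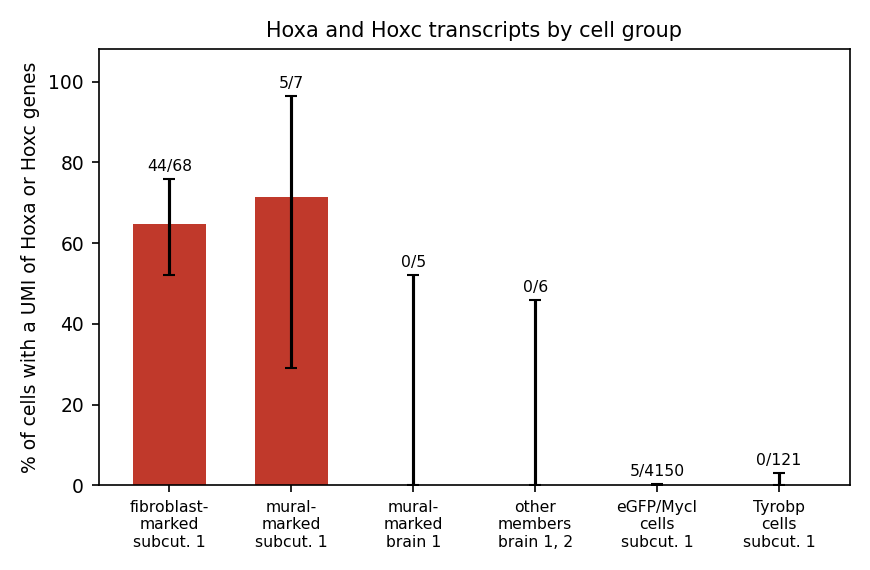
Percentage of cells with at least 1 UMI of 10 Hoxa and Hoxc genes in 6 classes of cells, with 95% exact binomial intervals and the counts of cells. The 2 subcutaneous classes stand at 64.7% and 71.4%, the 2 brain classes at 0, and the tumour and Tyrobp cells of the same flank tumour at 0.120% and 0.

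The 88 cells were clustered with the rule genes left out (Leiden method, resolution 0.5), as a description. Cluster 1 took all 12 mural-marked and all 8 unmarked cells, and the 68 fibroblast-marked cells fell into clusters 2, 3 and 4 of 17, 23 and 28 cells. Cluster 2 was led by Apoc1, Apod, Gas6, Cthrc1, Ccl8, Apoe and Cxcl12, with Apod at 9136 CPM against 1599 CPM in the other members and Apoe at 11742 against 2725 CPM. Cluster 4 was led by Akr1c18, Krtdap, Qpct, Igfbp5, Ckb and Dmkn. Cluster 3 was led by the hyaluronan synthase Has1, Ccl7, the transcription factors Klf4 and Atf3, and the phosphatase Dusp1. Pi16, one of the genes that made the class, had UMIs in 16 of 17, 22 of 23 and 26 of 28 cells of clusters 2, 3 and 4. Dpp4 had UMIs in 8 of 17, 20 of 23 and 20 of 28 cells, the lowest share being in cluster 2. Collagen and Dcn took similar shares, with medians of 2.92, 2.75 and 2.48% of UMIs.

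Immediate early genes, which respond within minutes to stimulation or stress, set cluster 3 apart. The 16 listed immediate early and heat shock genes took 0.983 to 6.63% of UMIs in its 23 cells (median 3.11%), 0.0552 to 0.567% in cluster 2 and 0 to 1.11% in cluster 4. Fos gave 7 to 84 UMIs in 23 of 23 cells of cluster 3 and was found in 2 of 17 cells of cluster 2 and 4 of 28 of cluster 4. The inflammatory list took a median of 0.889% in cluster 3, 0.522% in cluster 2 and 0.393% in cluster 4, with overlapping ranges. Depth differed as well: the median was 5445 UMIs in cluster 3, 2632 in cluster 2 and 2693.5 in cluster 4. The same genes took 1.68% of UMIs in the subcutaneous mural-marked cells, 1.09% in the brain mural-marked cells and 1.33% in the Tyrobp cells of subcutaneous replicate 1, against 0.474% in the eGFP and Mycl rich cells. These genes helped to make the clusters, and the part of cell dissociation was not tested.

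**Figure D5:**
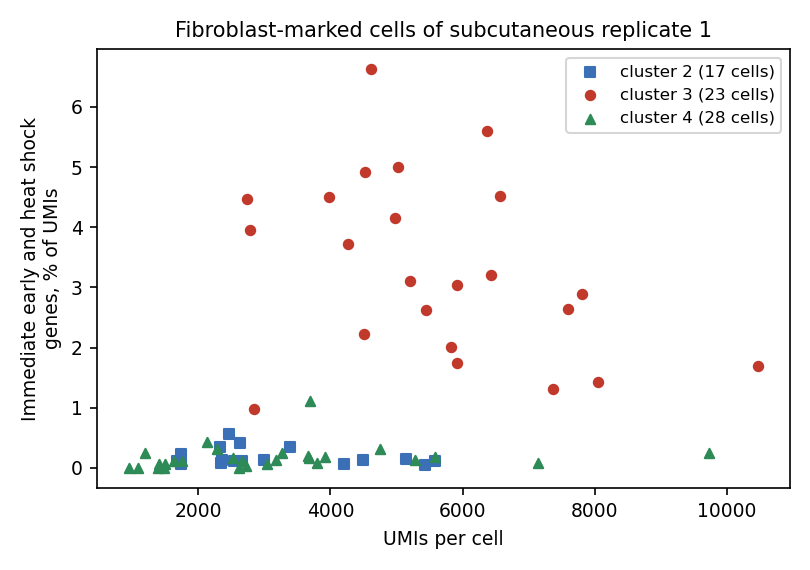
Share of UMIs from 16 immediate early and heat shock genes (y axis, percent) against UMIs per cell (x axis) for the 68 fibroblast-marked cells of subcutaneous replicate 1, by cluster. Cluster 3 (circles) covers 0.983 to 6.63%, and clusters 2 and 4 (squares and triangles) lie at 1.11% or less.

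No cycling was detected at matched depth. With cells thinned to 1000 UMIs, 0 of 75 cells of subcutaneous replicate 1 held at least 2 UMIs over 20 cell cycle genes (exact interval 0 to 4.80%), against 30.3% of 4135 eGFP and Mycl rich cells. Unthinned, the values were 3 of 76 cells (3.95%) and 64.6%. Interferon response genes were led by Ifitm3 (5123 CPM) and Ifi27l2a. Ifi27l2a stood at 4625 CPM in the fibroblast-marked cells, 38.7 CPM in the mural-marked cells of the same tumour and 4775 CPM in its Tyrobp cells. Class I antigen presentation genes such as B2m (4791 CPM) and H2-D1 (1927 CPM) lay below the Tyrobp cells (5981 and 3412 CPM) and above the eGFP and Mycl rich cells (77.1 and 138 CPM).

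Transcripts of other cell types were present at a low level. The 18 tumour genes summed to 0.0698% of UMIs in the fibroblast-marked cells, from 0 to 0.592% per cell, and to 0.0310% and 0.0510% in the 2 mural-marked classes, against 1.36% in the eGFP and Mycl rich cells. The 10 tumour genes outside the rule with at least 100 CPM in those cells stood at 3.77 to 10.9% of their tumour level (median 6.32%), and Mycl was seen in 26 of 68 fibroblast-marked cells. Of the 12 macrophage and microglia genes 5 had UMIs, summing to 0.00517% against 2.62% in the Tyrobp cells. The 12 endothelial genes summed to 0.758%, nearly all of it Ly6c1 (7489 CPM in 68 of 68 cells). Lymphocyte, hepatocyte, skeletal muscle, and cartilage and bone markers were at 0. Doublets were not removed, and their part in these values was not tested.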

How the data were processed

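Tumours were measured by 10x 3' single-cell RNA-seq in 8 libraries (2 brain, 3 liver, 3 subcutaneous). The deposited matrices hold whole-number UMI counts per gene and cell, not normalised. Cell Ranger, STAR and mm10 are named in the submitters' processing notes, and the matrix header gives software version 3.0.0, per the file headers. Replicates are separate libraries, and nothing in the labels says that replicate numbers pair them. Members and gene lists were chosen with earlier results of these data known.

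Counts were read with Python 3.11.15, numpy 2.4.6 and scipy 1.17.1. Cells were kept from 500 detected genes upward and with a mitochondrial share of up to 10%. No doublet caller was run, and doublets stayed in. Shares per library were compared with two-sided exact permutation tests over libraries, with Benjamini-Hochberg adjustment. Counts were summed per class and scaled to CPM. Ratios used genes with at least 20 UMIs in either class, a 4-fold limit and a floor of 3 UMIs. For ranking, any lower count was raised to that floor. Printed ratios used the floor for a count of 0 alone, unless stated. Poisson and Clopper-Pearson intervals are at 95%. Clustering used scanpy 1.11.5 and igraph 0.11.9 (2000 variable genes, 15 components, 15 neighbours, resolution 0.5). Named genes are the 20 with the highest ratio of members over other cells (at least 200 CPM), the 10 highest ratios in each direction of a class comparison, and members of the lists. Other genes named in the text were chosen after their values were seen. Scripts were tested on simulated data. Gene tests between sites were planned for libraries with at least 10 member cells. As 1 library had that many, they were not run. Gene positions are from GENCODE M21 (22029 of 22056 gene IDs matched).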

Additional observations from a re-analysis of the deposited data

Results flagged for a closer look

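In subcutaneous replicate 1, 11 cells with at least 0.2% eGFP and Mycl UMIs also held at least 5 collagen and Dcn UMIs, a signal outside the cells described above. Of these, 8 were fibroblast-marked and 2 mural-marked, and their median depth was 12547 UMIs against 9392.5 in all such eGFP and Mycl rich cells. Col3a1 stood at 9.83 CPM in the eGFP and Mycl rich cells of that library, with a UMI in 3.04% of them, against 0 to 1.15 CPM in the other 7 libraries. In liver replicate 2, 14 eGFP and Mycl rich cells held at least 5 collagen and Dcn UMIs, and 13 of them held Dcn alone among the 4 rule genes. The part of doublets and of free RNA in these values was not tested.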

How the results depend on the processing

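The difference in share between the subcutaneous mean and the mean of the brain and liver means was 0.493 percentage points. Each p here is an exact permutation p of the F statistic over the 3 sites, not of this difference. Leaving out 1 library at a time gave -0.0802 to 0.779 points. Without subcutaneous replicate 1 the difference reversed to -0.0802 and 12 member cells were left of 88 (12 to 88 over the libraries left out), which follows from that library holding 76 of them. The F statistic then gave an exact permutation p = 0.0952. With a replicate block, permuting within replicate number, the difference was 0.493 points with an exact permutation p = 0.667 (72 assignments). The numbers only name samples and do not pair them. The 19 settings that kept the direction gave 0.379 to 8.56 points (exact permutation p = 0.314 to 1). The replicate block, the counts of members and the 8.56 points, a share of the cells under 0.2% eGFP and Mycl, were chosen after seeing the data. Changes to the rule gave 66 to 98 members. The mural-marked share ran from 6.67 to 9.52% and the fibroblast-marked share from 81.3 to 92.0%. The cycling share was 10.7% with at least 1 UMI, and 0 to 3.95% under the other settings. Gene tests between sites and their alternatives were not run, since 1 library had at least 10 member cells. Depth limits the small classes: the floor of 3 UMIs is 160.6 CPM in the 6 other brain cells. It is 116 and 80.6 CPM in the 7 and 5 mural-marked cells.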
